A study of Mus musculus with 6 samples.

Results

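The interleukin 2 (IL-2) receptor and its signalling route through the transcription factor STAT5 were examined in regulatory T cells (Tregs), a class of CD4 T cells that hold immune responses in check, at the level of 10 genes out of 23725 in the deposited table. The 10 genes were chosen by symbol: the receptor chains Il2ra, Il2rb and Il2rg, the kinases Jak1 and Jak3, the transcription factors Stat5a and Stat5b, and the response genes Cish, Socs1 and Pim1. All 10 were found. Tregs came from lymph nodes of C57Bl/6 mice that had been immunised with myelin oligodendrocyte glycoprotein (MOG), a protein on the surface of the myelin sheath. The 2 groups were wild-type (WT) mice and mice that lack Mog in the whole animal (MOG KO), with 3 libraries each, and both groups received the immunisation. Each library was made from the RNA of 500 cells with 15 cycles of PCR. The mice's ages, the sort that defined a Treg, and whether each replicate is a separate mouse are not stated in the labels, so the p-values measure only how far these samples spread, and that spread can be technical.

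IL-2 is made mainly by activated conventional T cells, and Tregs, which make little of it themselves, depend on it for survival and for keeping Foxp3 expressed. The alpha chain (Il2ra, CD25) captures IL-2, and the beta chain (Il2rb) and the common gamma chain (Il2rg) carry the signal through the kinases JAK1 and JAK3, which are bound to their tails. The kinases phosphorylate STAT5A and STAT5B, which move to the nucleus and switch on target genes. Among these targets, Cish and Socs1 encode inhibitors that damp the same receptor, and Pim1 encodes a kinase that favours growth and survival.

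Values below are reads-per-million (RPM) of all counts of a library, given for replicates 1, 2 and 3 of WT and then of MOG KO. Libraries held 2717969 to 4472549 counts. Presence in a library means 10 RPM or more. All 6 libraries shared 704 (8.9%) of the 7909 genes that were present anywhere, and the other genes were missing from 1 library or more. WT replicate 3 stood apart, with 2701 genes present against 3265 to 4440 in the others, and with 8.22 RPM of Foxp3, the Treg lineage factor, against 326 to 690 RPM. The targeted gene Mog had 1 count in all libraries together, so it does not check the genotype labels. Of 5 Treg markers (Foxp3, Ikzf2, Ctla4, Tnfrsf18 and Nrp1), 4 were present in all 6 libraries, with summed levels of 2310 to 3651 RPM in WT and 2489 to 2944 RPM in MOG KO. The 5 T cell markers (Cd3d, Cd3e, Cd3g, Cd4 and Cd247) summed to 859 to 1806 RPM in WT and 1484 to 1752 RPM in MOG KO. WT replicate 3 was the lowest of these, with 1.42 RPM of Cd3g against 177 to 272 RPM and 170 RPM of Cd4 against 419 to 722 RPM in the other libraries, and MOG KO replicate 1 held 1.16 RPM of Cd247. Ctla4 was also lowest in WT replicate 3 (74.3 RPM), but Ikzf2 (1294 RPM) and Nrp1 (1146 RPM) were highest there. Its Cd3d, Cd3e, Cd247 and Tnfrsf18 lay within the range of the other libraries, and its Treg markers summed to 2758 RPM. The 2 CD8 T cell markers and 4 natural killer cell markers had 0 counts in all 6 libraries. The 5 B cell markers summed to 2.21 to 206 RPM in WT and 0 to 130 RPM in MOG KO, and the 5 myeloid markers to 6.26 to 19.9 and 5.78 to 193 RPM. Among the B cell markers, Cd79a and Pax5 were at 0. Cd79b was at 205 RPM in WT replicate 2 and 130 RPM in MOG KO replicate 2, and Ms4a1 at 87.3 RPM in WT replicate 3. The highest myeloid sum was mostly Cd68, at 188 RPM in MOG KO replicate 2. The 4 dendritic cell markers summed to at most 1.74 RPM, and 3 erythroid genes summed to 6.71 to 51.3 and 8.09 to 32.5 RPM. The part of these markers in the results was not tested.

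The 10 genes split into 5 that were present in every library and 5 that were not. Il2ra, Il2rb, Il2rg, Jak1 and Cish were present in all 6 libraries, and this number was also 5 at thresholds of 3 and 30 RPM. Jak3, Stat5a, Stat5b, Socs1 and Pim1 were missing from 1 to 4 libraries. Of the 60 values (10 genes in 6 libraries), 11 were below 3 RPM, 0 lay from 3 to 10 RPM and 49 were at 10 RPM or more, the lowest of these 23.6 RPM. WT replicate 2 held all 10 genes, WT replicate 1 and MOG KO replicate 2 held 9, MOG KO replicates 1 and 3 held 8, and WT replicate 3 held 5. In bulk RNA, fewer cells that express a gene, less RNA per cell and technical loss in a library of 500 cells cannot be told apart.

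**Figure D1:**
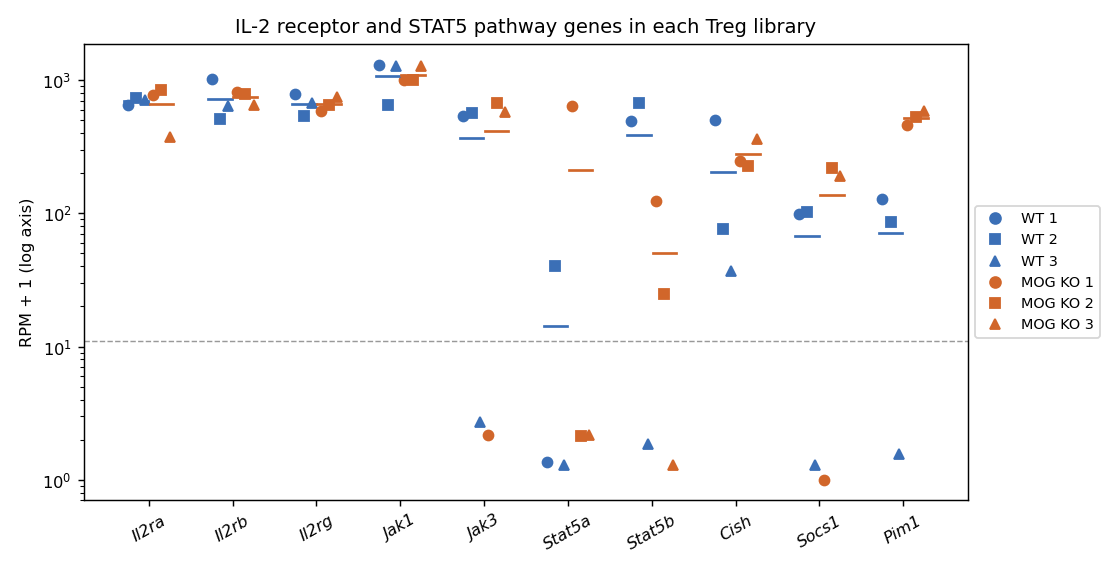
RPM + 1 on a log axis for the 10 genes, one point per library (blue WT, orange MOG KO, symbols by replicate), bars at the mean of each group, and a dashed line at the threshold of 10 RPM for presence. The receptor chains and Jak1 sit in a narrow band in both genotypes, while Jak3, Stat5a, Stat5b, Socs1 and Pim1 have points near 0 as well as points above 100 RPM.

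The 3 receptor chains were read at 371 RPM or more in every library, and the genotypes overlapped for each. Il2rg (Entrez 16186, GRCm38 chromosome X, 101264378 to 101268255, minus strand), which encodes the common gamma chain shared by several interleukin receptors, was read at 788, 533 and 671 RPM in the WT and at 583, 652 and 749 RPM in the MOG KO libraries. The groups overlapped fully, with means of 664 ± 128 and 661 ± 83.0 RPM (SD, n = 3 each). Its highest library was 1.48 times its lowest, and 38 of the 704 genes present in all libraries (5.4%) were as even or more so. The median of this ratio over the 704 genes was 3.75. For Il2ra, Il2rb and Jak1 it was 2.29, 2.01 and 2.02, and 25.7%, 18.9% and 19.2% of the 704 genes were at or below these. For Cish it was 14.0, with 82.5% of the 704 genes at or below it, so Cish was present everywhere but unevenly.

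Il2rb (Entrez 16185, chromosome 15, 78479256 to 78495271, minus strand), the beta chain that IL-2 shares with IL-15, was read at 1018, 506 and 633 RPM in the WT and at 814, 785 and 646 RPM in the MOG KO libraries. The 2 extremes were both WT libraries, and the 3 MOG KO libraries lay between them. Il2ra (Entrez 16184, chromosome 2, 11642807 to 11693193, plus strand), the alpha chain that gives the receptor its high affinity and the usual surface marker of Tregs, was read at 654, 739 and 708 RPM in the WT and at 777, 849 and 371 RPM in the MOG KO libraries. MOG KO replicates 1 and 2 were above every WT library and MOG KO replicate 3 was below every one. WT replicate 3, which was low in Foxp3, was not low in any receptor chain.

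The fold changes of the 3 chains were close to 0 in the edgeR quasi-likelihood fit, given as the log2 fold change of MOG KO minus WT with its standard error. They were -0.14 ± 0.48 for Il2ra (95% interval -1.26 to 0.97), 0.00 ± 0.44 for Il2rb (-1.03 to 1.02) and -0.07 ± 0.45 for Il2rg (-1.12 to 0.98), with an adjusted p of 1 for each in edgeR. Differences of nearly 2-fold in either direction are within these intervals. The standard errors depended on the fit: for the 3 chains they were 0.44 to 0.48 here, 0.28 to 0.32 in limma-voom, 1.45 to 1.52 in edgeR with no filter on low counts and 1.86 in DESeq2. Without MOG KO replicate 3, the value of Il2ra was 0.16.

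The 2 kinases of the receptor differed in how evenly they were read. Jak1 (Entrez 16451, chromosome 4, 101152367 to 101265282, minus strand), which binds the beta chain, was read at 1304, 644 and 1282 RPM in the WT and at 1002, 1009 and 1271 RPM in the MOG KO libraries. WT replicate 2 was low and the other 5 libraries were at 1002 RPM or more. The log2 fold change was -0.05 ± 0.38 (95% interval -0.95 to 0.84, adjusted p of 1 in edgeR).

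Jak3 (Entrez 16453, chromosome 8, 71676296 to 71690575, plus strand), which binds the common gamma chain, was read at 538, 565 and 1.70 RPM in the WT and at 1.16, 673 and 571 RPM in the MOG KO libraries. It was at 538 RPM or more in 4 libraries and was near 0 in WT replicate 3 and MOG KO replicate 1, which are of different genotype. The log2 fold change was 0.21 ± 2.04 (95% interval -4.54 to 4.97), so the spread within each genotype was far larger than the difference between them. Its 3′ part overlaps Insl3 on the same strand, a gene with 87 counts in MOG KO replicate 3 and 0 in the other 5 libraries.

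Stat5a (Entrez 20850, chromosome 11, 100859351 to 100885169, plus strand) and Stat5b (Entrez 20851, chromosome 11, 100780731 to 100850724, minus strand) are neighbouring copies of one gene, 8626 bases apart and read from opposite strands. Their coding sequences, without the stop codon, have 2379 and 2358 bases and were 90.7% identical over 2343 aligned bases. Reads of 100 bases can mostly tell them apart: 265 of 2122 aligned coding windows of that length (12.5%) had no mismatch, and the longest identical run was 324 bases. The coding window in which they differ most, bases 65 to 164 of each coding sequence, is printed to show what separates the 2 genes. Capitals mark the 28 of 100 bases that differ, and the window lies in exons 3 and 4 of transcript Stat5a-201 (chr11:100861402-100861756, plus strand) and exons 2 and 3 of Stat5b-202 (chr11:100804991-100808459, minus strand), with the intron left out.
Stat5a: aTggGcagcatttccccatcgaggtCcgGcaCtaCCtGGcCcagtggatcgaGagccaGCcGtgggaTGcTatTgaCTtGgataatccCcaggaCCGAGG
Stat5b: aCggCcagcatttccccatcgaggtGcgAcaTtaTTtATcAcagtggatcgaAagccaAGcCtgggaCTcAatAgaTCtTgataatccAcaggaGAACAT

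Stat5b was the STAT5 gene read in most libraries. It was read at 489, 672 and 0.850 RPM in the WT and at 123, 23.6 and 0.290 RPM in the MOG KO libraries. WT replicates 1 and 2 were above every MOG KO library, and WT replicate 3 and MOG KO replicate 3 were near 0. The groups overlapped through WT replicate 3, and the log2 fold change was -3.02 ± 2.56 (95% interval -8.98 to 2.93, adjusted p of 1 in edgeR).

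Stat5a was near 0 in all but 2 libraries, at 0.368, 38.9 and 0.283 RPM in the WT and 633, 1.15 and 1.16 RPM in the MOG KO libraries. Stat5a did not pass the filter on low counts and was not tested, and with no filter its log2 fold change was 3.95 ± 3.36 (adjusted p = 0.574 in edgeR).

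Of the reads of both STAT5 genes together, Stat5a took 0.0751% of 1331 reads in WT replicate 1 (95% Wilson interval 0.0133% to 0.424%) and 5.47% of 3180 in WT replicate 2 (4.73% to 6.32%). In MOG KO replicate 1 it took 83.7% of 3273 reads (82.4% to 85.0%) and in MOG KO replicate 2 it took 4.63% of 108 (1.99% to 10.4%). MOG KO replicate 1 was thus the single well-read library with more Stat5a than Stat5b. WT replicate 3 and MOG KO replicate 3 held 4 and 5 reads of both genes together, too few to give a share. With 2 libraries of each genotype left, no mean share and no test is given.

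**Figure D2:**
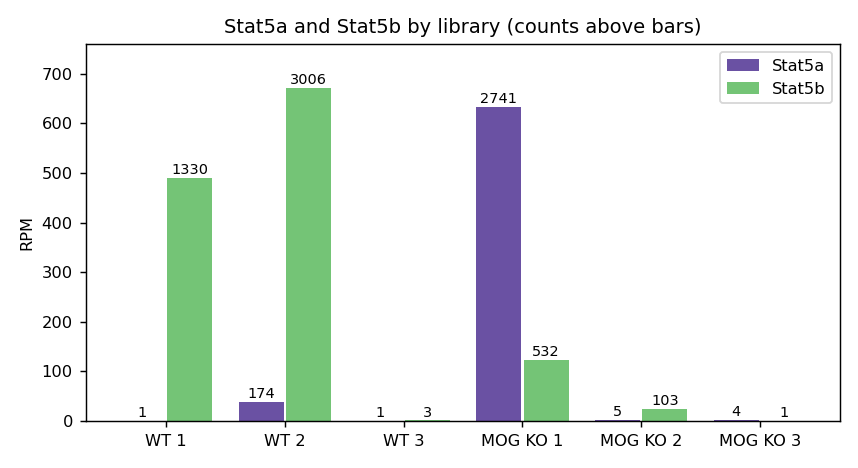
RPM of Stat5a (purple) and Stat5b (green) in each library, with the raw counts above the bars. Stat5b is the taller bar in WT replicates 1 and 2, Stat5a in MOG KO replicate 1, and neither gene exceeds 5 counts in WT replicate 3 and MOG KO replicate 3.

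Cish (Entrez 12700, chromosome 9, 107296026 to 107302784, plus strand) encodes an inhibitor that binds activated cytokine receptors and is a direct STAT5 target. STAT5 binds palindromes of the form TTCNNNGAA, and this motif was searched in RefSeq promoter windows of GRCm38 from 250 bases before to 50 bases after each gene's start. Of 32851 windows, 2726 (8.3%) held the motif, and 150 (0.457%) held it more than once. RefSeq windows were found for 9 of the 10 genes, 12 windows in all. Cish held 2 matches, and the other 8 genes held none in these windows. The part of the Cish window around the start is printed because both matches lie there, with the matches in capitals: the first begins at the RefSeq start base and the second follows after 2 bases (chr9:107296599-107296678, plus strand, GRCm38, 60 bases before the start and 20 after). This stretch lies downstream of 107296026, the first base of the GENCODE gene. The motif reads the same on both strands, and a match is a sequence description, not a measured binding site.
Cish: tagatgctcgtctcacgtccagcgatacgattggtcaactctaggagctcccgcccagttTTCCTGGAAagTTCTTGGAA

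Cish was read at 501, 74.7 and 35.7 RPM in the WT and at 247, 225 and 359 RPM in the MOG KO libraries. The WT libraries held both the highest and the lowest values, and the MOG KO libraries lay between them, with a coefficient of variation of 26.0% against 127% in WT. The log2 fold change was 0.43 ± 1.59 (95% interval -3.25 to 4.11, adjusted p of 1 in edgeR), and it was 2.28 without WT replicate 1 and -0.04 without WT replicate 3. In MOG KO replicate 3, which had 5 reads of both STAT5 genes together, Cish was at 359 RPM, and in WT replicate 3, which had 4, it was at 35.7 RPM.

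Socs1 (Entrez 12703, chromosome 16, 10782240 to 10785536, minus strand) encodes an inhibitor of JAK kinases. It was read at 97.1, 101 and 0.283 RPM in the WT and at 0, 216 and 190 RPM in the MOG KO libraries. The 0 counts in MOG KO replicate 1 allow up to 0.693 RPM, the level of 3 counts, by counting error only. Socs1 was present in the same 4 libraries as Jak3 and missing from the same 2, a pattern held by 107 of the 7909 present genes (1.35%). For each Socs1 read, WT replicates 1 and 2 held 5.54 and 5.59 reads of Jak3, and MOG KO replicates 2 and 3 held 3.11 and 3.00. This ratio was not among the planned comparisons, rests on 2 libraries of each genotype and was not tested. The log2 fold change of Socs1 was 1.07 ± 2.70 (95% interval -5.22 to 7.37, adjusted p of 1 in edgeR).

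Pim1 (Entrez 18712, chromosome 17, 29490753 to 29496112, plus strand) was read at 127, 85.2 and 0.567 RPM in the WT and at 462, 524 and 581 RPM in the MOG KO libraries. All 3 MOG KO libraries were above all 3 WT libraries, with means of 522 ± 59.4 and 70.8 ± 64.2 RPM (SD, n = 3 each). It was the 1 gene of the 9 tested whose groups did not overlap, where 10.5% of all 4088 tested genes did not overlap in either direction and 5.97% were higher in MOG KO. The log2 fold change was 2.89 ± 1.78 (95% interval -1.25 to 7.03), with an unadjusted p of 0.145 and an adjusted p of 1 in edgeR. WT replicate 3, in which Pim1 was near 0, was low in Foxp3, Ctla4, Cd3g and Cd4 but highest in Ikzf2 and Nrp1. Without this library the log2 fold change of Pim1 was 2.33 ± 0.95 with an adjusted p of 0.598 in edgeR. Over all alternatives the adjusted p was 0.46 or more. The Pim1 difference did not pass the test in any of them.

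With edgeR, 0 of 4088 genes (0%) had an adjusted p of 0.05 or less. Of the 9 tested genes of the pathway, 0 passed, 0 had an unadjusted p under 0.05 (5.11% of all tested genes had one), and 0 passed in DESeq2, where 16% of 4648 genes passed, or in limma-voom, where 0% passed. Of the 9 fold changes, 4 were positive and 5 negative, with a median of 0.00, beside 2128 positive and 1960 negative and a median of 0.06 over all tested genes. The median standard error was 1.59 for the 9 genes and 2.42 for all. Il2ra, Il2rb, Il2rg and Jak1 had standard errors from 0.38 to 0.48, and the other 5 tested genes, Cish among them, from 1.59 to 2.70.

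**Figure D3:**
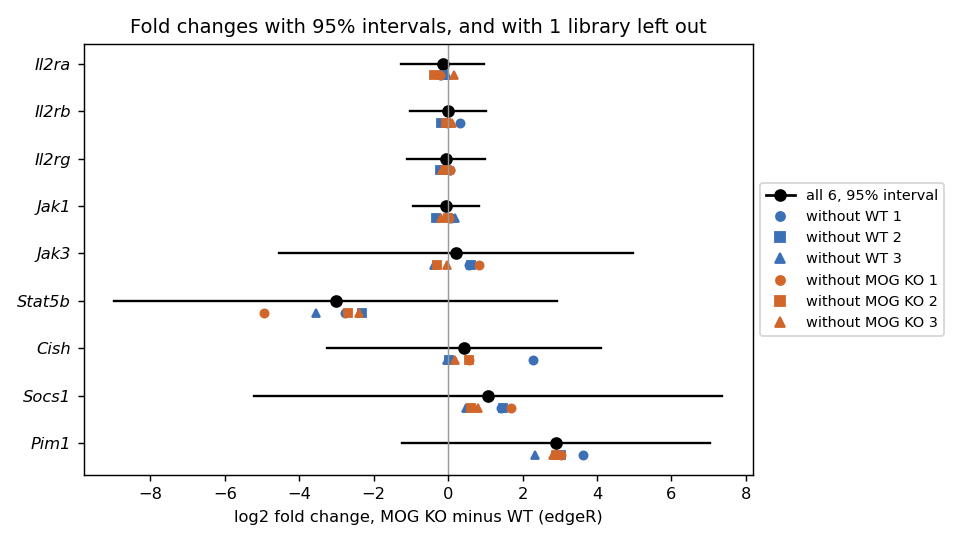
Log2 fold changes of MOG KO minus WT for the 9 tested genes (black points, all 6 libraries) with 95% intervals, and below each the value with 1 library left out (coloured symbols, shape by replicate). Every interval includes 0, and those of the receptor chains and Jak1 are the narrow ones.

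Levels of different genes were compared per kilobase (kb) of exon, using the union of GENCODE exons of each gene. The order by the median of the 6 libraries was Il2rg at 277 RPM per kb, Il2rb at 167, Jak1 at 158, Il2ra at 127, Jak3 at 103, Pim1 at 87.5, Cish at 36.7, Socs1 at 34.1, Stat5b at 13.2 and Stat5a at 0.162 RPM per kb. The ranges over libraries of each gene and the next in this order overlapped. Within libraries, Il2rg was above Il2rb in 6 of 6, and each of the other genes was above the next in 2 to 5 of 6. Il2rg ranged from 223 to 330 RPM per kb, above the whole range of Il2ra (65.0 to 149 RPM per kb) and above that of Jak1 (89.2 to 180). Of the 100-base stretches of the Il2rg transcripts, 24.5% also occur in Gm20489, an overlapping gene not in the count table, and 0% to 6.75% of those of the other 9 genes occur in another gene. Cish and Pim1 overlap genes on the opposite strand that are not in the count table, and without a stated strand setting the reads of these cannot be told apart. Stat5a was the lowest of the 10 genes in 4 libraries, and its median lies between libraries with 5 and 4 counts and is no usable level. MOG KO replicate 1 held it at 88.8 RPM per kb, within the range of Il2ra.

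**Figure D4:**
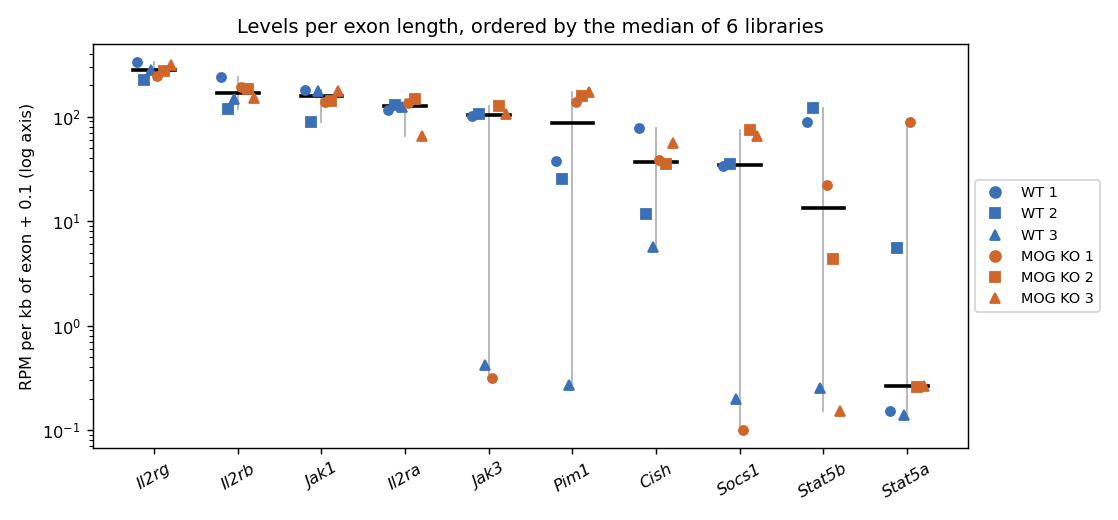
RPM per kb of exon + 0.1 on a log axis, ordered by the median (black bar), with a grey line from the lowest to the highest library and 1 symbol per library (blue WT, orange MOG KO). The common gamma chain is at the top at 277 RPM per kb and Stat5a at the bottom at 0.162, and each gene overlaps the next.

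The common gamma chain serves other cytokines as well, and 11 genes of these cytokines and receptors were examined. None of the 6 cytokine genes, Il2 among them, was present in any library, and Il2 itself had at most 0.894 RPM. Of the 3 tested receptors 0 passed, with 1 positive and 2 negative values. Il7r, the IL-7 receptor chain that is low on most Tregs, was read at 1033, 733 and 7.94 RPM in the WT and at 724, 61.0 and 8.11 RPM in the MOG KO libraries. Il4ra, the IL-4 receptor chain, was read at 6.62, 656 and 291 RPM in the WT and at 670, 578 and 2.32 RPM in the MOG KO libraries. The groups overlapped for both.

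Among 9 other JAK, STAT and PIM genes, 7 were tested and 0 passed, with 3 positive and 4 negative values and a median of -0.97. The median was 0.11 without WT replicate 1, -0.07 in DESeq2 and -3.56 in limma-voom, so its sign and size were not stable. With 1 library left out, and in DESeq2, the genes kept for testing change. The medians of such fits, for this list and those below, can therefore cover other genes of the list. Stat2, a factor of type I interferon signalling, was read at 9.20, 21.0 and 0.283 RPM in the WT and at 456, 777 and 0.580 RPM in the MOG KO libraries (log2 fold change 5.34 ± 2.72). Stat3, which carries IL-6 and IL-21 signals and lies beside Stat5a, was read at 741, 332 and 680 RPM in the WT and at 0.231, 105 and 201 RPM in the MOG KO libraries (-2.56 ± 1.79). The Stat3 groups did not overlap (4.57% of all tested genes were lower in MOG KO without overlap) and those of Stat2 did, and the adjusted p was 1 for both in edgeR. MOG KO replicate 1, the library with high Stat5a, held 1 count of Stat3. The annotated Stat3 and Stat5a overlap by 72 bases on opposite strands.

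Among 17 further inhibitors of cytokine signalling, 7 were tested and 0 passed, with 1 positive and 6 negative values and a median of -0.62. With 1 library left out the median, over the genes kept in each fit, ran from -1.37 (without MOG KO replicate 2) to -0.03 (without WT replicate 1). It was -0.08 without WT replicate 3. The named members were Ptpn6, a phosphatase, at 2.03 to 5.52 RPM in every library except WT replicate 2 (142 RPM), and Pias2, a SUMO ligase, at 0 to 16.5 RPM in every library except WT replicate 1 (595 RPM). Each therefore rested on 1 library. Pias1, another SUMO ligase, was the 1 of the 7 whose groups did not overlap, beside 10.5% of all tested genes in either direction. Pias1 was lower in MOG KO (-1.51 ± 1.59, adjusted p of 1 in edgeR), as were 4.57% of all tested genes without overlap. Of the RAS-MAPK and PI3K branches of the receptor, 14 of 21 genes were tested and 0 passed, with 8 positive and 6 negative values and a median of 0.16 (0.13 to 0.47 with 1 library left out, the highest without WT replicate 1).

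Among 25 genes known as IL-2 or STAT5 targets in T cells, 14 were tested and 0 passed, with 8 positive and 6 negative values and a median of 0.13. The median was 0.67 without WT replicate 1 and 0.05 without WT replicate 2. Of the 25, 7 were present in all 6 libraries and 4 in none. Ccnd2, the cell cycle gene of cyclin D2, was read at 166, 246 and 3.12 RPM in the WT and at 856, 348 and 719 RPM in the MOG KO libraries (log2 fold change 2.21 ± 1.42, adjusted p of 1 in edgeR). Gzmb, the granzyme B gene, was read at 234, 230 and 1.98 RPM in the WT and at 456, 449 and 693 RPM in the MOG KO libraries (1.79 ± 1.54, adjusted p of 1 in edgeR). Like Pim1, both had all MOG KO libraries above all WT libraries and were near 0 in WT replicate 3. That library was low in Foxp3, Ctla4, Cd3g and Cd4 but highest in Ikzf2 and Nrp1. Of the 14 tested targets, 3 were higher in MOG KO without overlap, beside 5.97% of all tested genes. The third was Icos, a costimulatory receptor, at 822 to 916 RPM in WT and 975 to 1018 RPM in MOG KO (0.10 ± 0.32). Pias1 and Icos were named after their values were seen. Of the 45 tested genes of the 5 lists, 0 had an unadjusted p under 0.05 in edgeR and 0 passed in limma-voom. DESeq2 passed 6 of 48, beside 16% of all genes it tested: Socs2, Pias3, Pik3r1, Nfil3 and Cdk6 with positive fold changes and Hras with a negative one. These 6 were named after their values were seen, and none was kept by the filter used for edgeR. Each of the 5 positive genes had 1 MOG KO library at 3 counts or fewer, so their groups overlapped. Those of Hras did not, at 1.10, 52.5 and 15.3 RPM in the WT and 0, 0 and 0.290 RPM in the MOG KO libraries. This rests on 3 counts in WT replicate 1 against 1 count in MOG KO replicate 3. Of the genes tested in edgeR, 4.57% were lower in MOG KO without overlap, and this share was not taken for those of DESeq2.

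Genes with the most similar pattern were taken as those with the smallest mean absolute difference in centred log2(RPM + 1) over the 6 libraries, among 5717 genes. For Il2ra these were Arhgef1, a guanine nucleotide exchange factor (mean difference 0.09), and Hnrnpu, a nuclear RNA-binding protein (0.14), both of which were also lowest in MOG KO replicate 3, at 430 and 571 RPM. For Cish they were Nckap1l, an actin regulator of blood cells (0.29), and Cyld, a deubiquitinase (0.35), which were lowest in WT replicate 3 at 97.2 and 40.0 RPM. For Pim1 they were Zfp706 (0.26), with 1.13 RPM in WT replicate 3 and 467 RPM or more in MOG KO, and Phgdh, an enzyme of serine synthesis (0.40), with 0 counts in WT replicate 3. With 6 libraries and so many genes, close matches are easily found. That a match shares the lowest library of its member follows from how it was chosen.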

How the data were processed

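The authors deposited raw counts of exonic reads for each gene and library, and a table of reads-per-million (RPM) that equals those counts rescaled by the library total (differences under 1e-06). The submitters' processing notes name STAR 2.3.1, R 3.2.2 and build mm10 (GRCm38). How reads were counted, with which gene models and strand setting, is not given in the sources used here, so overlapping and antisense genes may share reads. The labels' protocols name no molecular identifiers, so the Wilson intervals and the floors (3 counts) cover counting error only. The intervals of the fold changes rest on the spread among libraries.

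Counts were fitted with edgeR 4.0.16 in R 4.3.3 on the whole table (filterByExpr, trimmed mean of M-values, robust quasi-likelihood, genotype alone, Benjamini-Hochberg over 4088 genes, threshold 0.05). The standard error is the absolute log2 fold change over the square root of F. The steps were tested on simulated data, with recovery of known changes required only at a small spread. That check does not give the power at the spread of these libraries. The genes and lists were chosen with earlier results of these data known. All 10 genes are named. From each list the text names up to 4 genes that pass, otherwise the 2 with the lowest p, and the 2 most similar genes (mean of 30 RPM or more) for Il2ra, Cish and Pim1. A planned permutation test of the Stat5a share of STAT5 reads is not given, because 2 libraries held too few reads. A few genes chosen this way are left out of the text. Alternatives were DESeq2 size factors, no filter, 50 counts in 3 libraries, DESeq2 1.42.0, limma-voom (limma 3.58.1), a replicate block and leaving out each library. Coordinates, exon lengths and transcripts are GENCODE M21, matched by Entrez identifier for 10 of 10 genes. Promoters are RefSeq (GRCm38.p6).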

Additional observations from a re-analysis of the deposited data

How the results depend on the processing

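No alternative put any of the 9 tested genes past the threshold. DESeq2 put 745 of the 4648 genes it tested (16%) past it, and 6 of the 48 it tested from the pathway lists. These 6 were Socs2 and Pias3 (further inhibitors), Hras and Pik3r1 (RAS-MAPK and PI3K branches) and Nfil3 and Cdk6 (targets). They are named after their values were seen, and the cause was not tested. The sign changed for Il2rb with no filter (0.0047), with 50 counts in 3 libraries (0.011), in limma-voom (0.36) and with the replicate block (0.052). In limma-voom it also changed for Il2rg (0.068), Jak1 (0.42), Jak3 (-0.80) and Socs1 (-0.15), and for Jak1 with the replicate block (0.023); the cause was not tested. With 1 library left out, log2 fold changes ran from -0.38 to 0.16 (Il2ra), -0.19 to 0.32 (Il2rb), -0.21 to 0.056 (Il2rg), -0.31 to 0.19 (Jak1), -0.38 to 0.83 (Jak3), -4.94 to -2.32 (Stat5b), -0.042 to 2.28 (Cish), 0.48 to 1.69 (Socs1) and 2.33 to 3.61 (Pim1). Leaving out WT replicate 3 shifted the log2 fold changes of the 4088 genes of the main fit by a median of -0.30. The median over the 5492 genes tested without that library was 0.15, beside 0.06 with all libraries.

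Deviations from the group means correlated at -0.02, 0.00 and -0.02 between same-numbered libraries over 4088 genes. The replicate block left 0 genes past the threshold, as did the fit without it. Neither result can decide whether the replicate numbers pair samples, because genes missing from single libraries could hide a shared effect. Per length, the longest transcript in place of all exons gave 164 RPM per kb for Il2ra, 396 for Il2rg and 232 for Jak1, which put Jak1 in place 2 and Il2rb in place 3, and means in place of medians put Pim1 in place 5, Jak3 in place 6 and Stat5b in place 7, ahead of Cish and Socs1. The receptor chains and Jak1 had 1281 counts or more in every library. With the replicate block the median of the IL-2 and STAT5 targets was 0.01 and that of the RAS-MAPK and PI3K branches 0.60. Counts of 0 to 6, as in the low libraries of Jak3, Stat5a, Stat5b, Socs1 and Pim1, give no usable level.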
